A study of Mus musculus with 550 samples.

Results

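The 7 kidney injury genes described here are Havcr1, Lcn2, Clu, Krt20, Timp1, Vim and Spp1, whose transcripts damaged tubule cells are known to make in larger amounts. They were chosen by name, and each was read from the probe sets annotated to that gene alone, taking for each organ the probe set with the highest mean. Of the 7 genes, 6 had such a probe set, 11 probe sets in all, among 17097 genes tested; Spp1 was not analysed here. The arrays came from C57Bl/6 mice given 1 dose of dimethyl fumarate (DMF), of a mixture of calcium, magnesium and zinc salts of monoethyl fumarate (MEF), of both, or of vehicle, and killed 6 or 12 h later. The series held 550 samples of 7 organs in 77 groups, of which 77 samples in 11 groups were kidneys.

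The kidney groups at 6 h were DMF at 100 mg/kg (DMF100, 8 mice), DMF at 179.2 mg/kg (DMF179.2, 8 mice), MEF salts at 79.2 mg/kg (MEF, 8 mice), DMF at 100 mg/kg with MEF salts at 79.2 mg/kg (DMF+MEF, 7 mice) and vehicle, a hydroxypropyl methylcellulose solution (VEH, 7 mice). At 12 h the same groups held 6, 8, 7, 4 and 8 mice, and 6 mice labelled NAIVE, with no dose named, formed a further group. The sample titles of the DMF+MEF mice name both compounds, whereas a second label of theirs names DMF alone. The DMF and MEF doses differ in amount, so their values are set side by side here and not compared. No label ties a kidney to a cage, a day of work or a scan, and the p-values measure the spread between single mice. All comparisons against VEH at 1 time share the same VEH kidneys.

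The tubule cells of the kidney reabsorb most of what the glomeruli filter, and those of the proximal tubule carry most of that work and are the first to suffer from many toxic agents and from lack of oxygen. An injured tubule cell is known to lose part of its transport program and to switch on genes of a less differentiated state. Havcr1 encodes KIM-1, a surface receptor that lets tubule cells take up dying neighbours, and Lcn2 encodes NGAL, a secreted protein that binds iron-carrying siderophores; both are used as markers of acute tubular injury in blood, urine or tissue. Clu encodes clusterin, a secreted chaperone, Krt20 a keratin of epithelial filaments, Timp1 an inhibitor of matrix metalloproteinases, and Vim the intermediate filament vimentin of mesenchymal cells, which injured tubule cells also make. Spp1 encodes osteopontin, a secreted matrix phosphoprotein. Fumarate esters are known to react with the sensor KEAP1 and so to release the transcription factor NRF2, which drives genes of detoxification.

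The levels are log2 intensities as deposited by the authors, and the values of each organ and time had been normalized apart, so that levels were compared only among kidneys of 1 time. The lowest value that arrays of a set shared, called the floor below, was 2.16 for kidneys at 6 h and 2.23 at 12 h. Genes that mark the proximal tubule averaged between 10.99 and 11.17 over the kidneys at 6 h and between 10.26 and 10.59 at 12 h, far above the floor, whereas lymphocyte markers averaged between 3.16 and 3.94. One kidney, VEH replicate 2 at 12 h, held adrenal transcripts: its mean over the adrenal and fat markers was 8.09, against 3.09 to 4.83 in the 38 other kidneys of that time. Another, DMF179.2 replicate 71 at 6 h, had an Xist level of 3.99, against 10.2 to 11.5 in all other kidneys. Leaving out either kidney changed no call of an injury gene in the kidney comparisons run.

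In every dosed group at 6 h all 5 control genes of the NRF2 response, Nqo1, Hmox1, Gclc, Cbr3 and Osgin1, were called higher than in VEH. Nqo1, a quinone reductase, rose by 1.37 to 1.63 on the log2 scale in the 4 dosed groups at 6 h and by 1.02 to 1.75 at 12 h, and Cbr3, a carbonyl reductase, rose by 3.93 to 4.68 at 6 h and by 1.92 to 3.67 at 12 h. At 12 h, 2, 3, 2 and 3 of the 5 were called in DMF100, DMF179.2, MEF and DMF+MEF. In NAIVE kidneys none of the 5 was called, and Nqo1 differed from VEH by -0.03. A gene was called where limma's Benjamini-Hochberg adjusted p over all 17097 genes was below 0.05.

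By the probe set of highest mean, no kidney injury gene was called higher in a dosed kidney group. Havcr1 was called higher in DMF+MEF at 12 h by its second probe set. By the mean of both it was called higher in DMF179.2 and DMF+MEF at 12 h, as given below. Of 48 comparisons of a member gene in a dosed group with VEH, 0 were called higher and 1 was called lower, Vim in MEF kidneys at 12 h, while 5 had an unadjusted limma p below 0.05. The share of all genes called at 6 h was 4.07% in DMF100, 25% in DMF179.2, 5.9% in MEF and 13.2% in DMF+MEF. At 12 h it was 1.38%, 7.25%, 17.5% and 11% in the same groups. An unadjusted limma p below 0.05 was found for 2580, 5785, 2875 and 4288 of all 17097 genes at 6 h, in that order. For 12 h these counts were 1815, 3102, 4892 and 3764. Measured changes of the members lay between -0.27 and 0.47 on the log2 scale, 29 of the 48 were above 0, and in all 48 the dosed and VEH kidneys overlapped. How many of all genes overlap in this way was not counted, so the overlap does not set the members apart from other genes. The 95% intervals of the 48 fold changes ran from 0.661 to 1.89, and the median over the 6 genes lay between -0.04 and 0.08 in the 8 dosed groups, against a median over all genes of 0.0. In whole kidney, a change in the number of cells that make a transcript and a change in the amount per cell cannot be told apart.

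**Figure D1:**
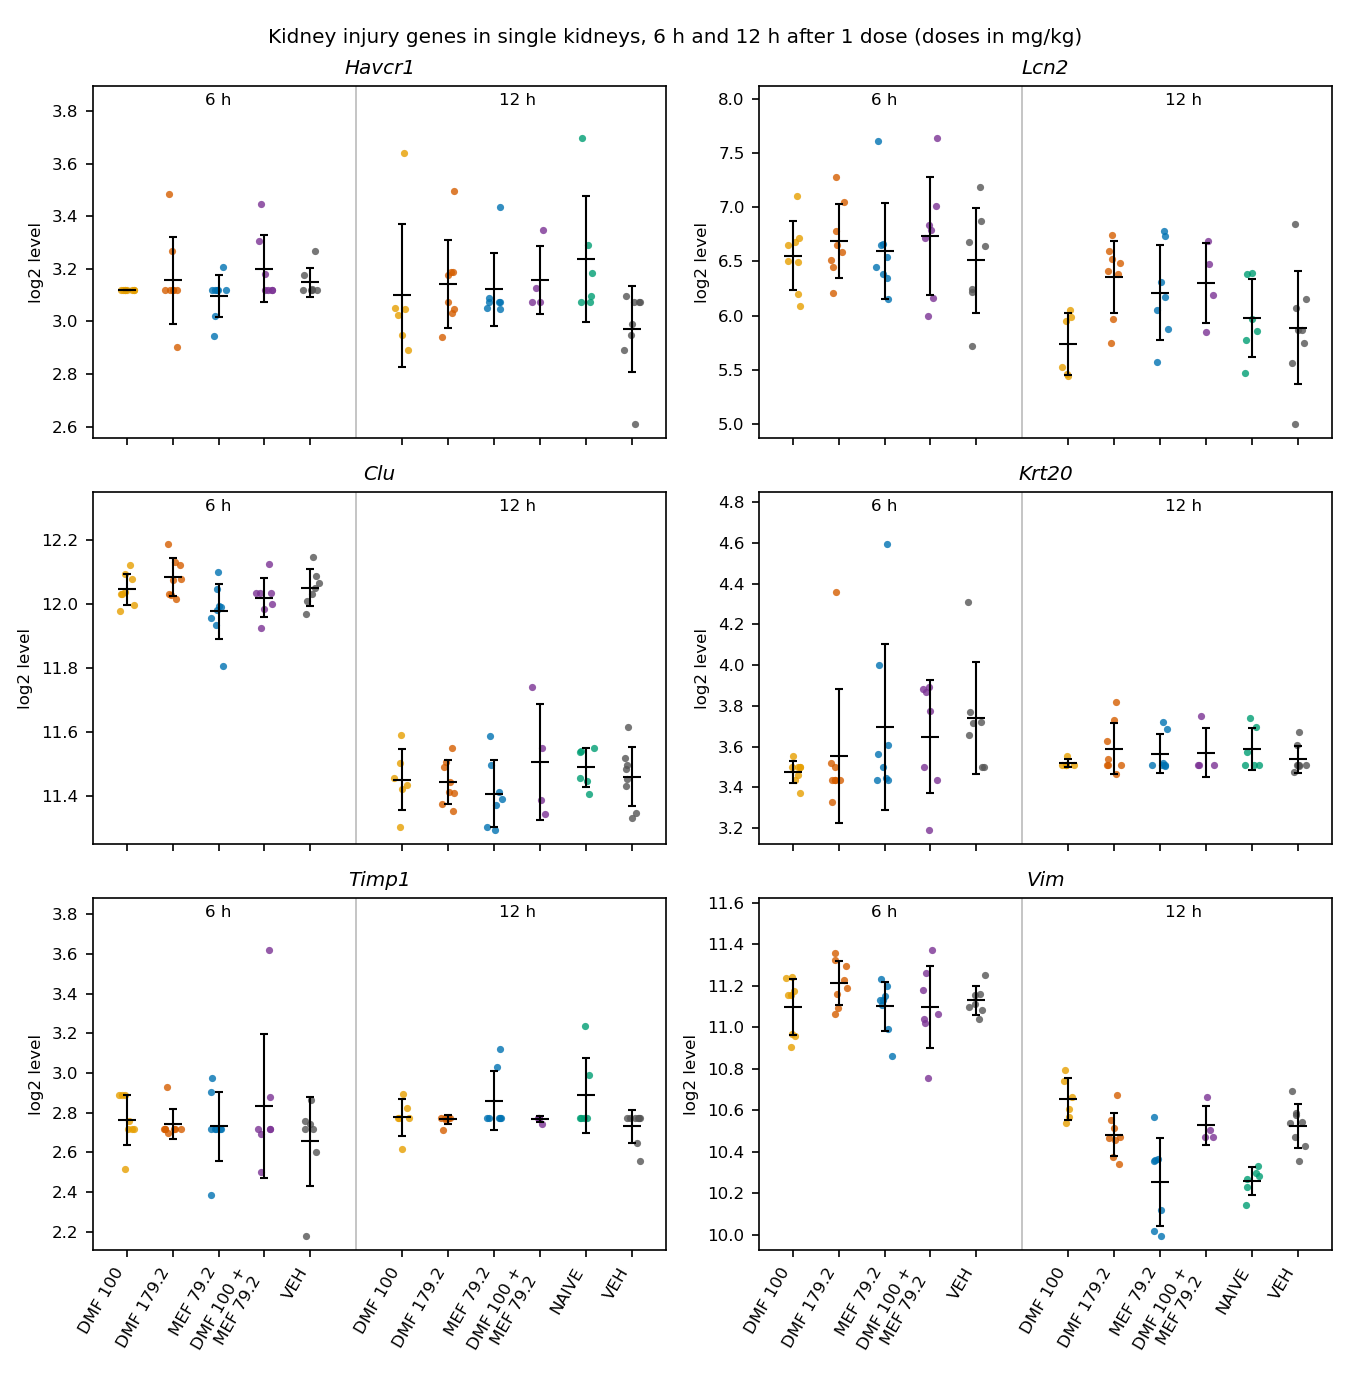
Log2 level of each of the 6 measured injury genes in every kidney, 1 panel per gene, with groups at 6 h on the left and at 12 h on the right of each panel. Points are single mice and bars give the mean ± SD; dosed and VEH kidneys overlap in every panel, and the 12 h Vim points of NAIVE kidneys all lie below those of VEH.

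Havcr1, measured by probe set 1450364_PM_a_at in kidney, was close to the floor in every group. At 12 h the lowest, median and highest levels were 2.89, 3.04 and 3.64 in DMF100, 2.94, 3.13 and 3.50 in DMF179.2, and 3.05, 3.08 and 3.44 in MEF. The 4 DMF+MEF kidneys had 3.08, 3.13, 3.08 and 3.35, and the VEH kidneys 2.61, 3.03 and 3.10. Most dosed kidneys thus lay among the VEH values, with 1 of 6 DMF100, 4 of 8 DMF179.2, 1 of 7 MEF and 2 of 4 DMF+MEF kidneys above every VEH kidney. The change against VEH was 0.13 in DMF100 (limma adjusted p = 0.672), 0.17 in DMF179.2 (SE 0.0765, 1.13-fold with a 95% interval of 1.01 to 1.25, adjusted p = 0.189), 0.15 in MEF (adjusted p = 0.202) and 0.19 in DMF+MEF (SE 0.0937, adjusted p = 0.23), none of which was called. At 6 h the means were 3.12 ± 0.00 in DMF100, 3.16 ± 0.16 in DMF179.2, 3.10 ± 0.08 in MEF, 3.20 ± 0.13 in DMF+MEF and 3.15 ± 0.06 in VEH (SD), and the changes lay between -0.05 and 0.05 after rounding. The deposited Havcr1 value was the same number, 3.12, in 25 of the 38 kidneys at 6 h, with 10 above it and 3 below, and 3.08 in 11 of the 39 kidneys at 12 h.

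A second Havcr1 probe set, 1434716_PM_at, had a lower mean in kidney and so was not the one used, and it gave another answer for DMF+MEF. At 12 h it read 3.62, 3.14, 3.16 and 3.01 in the 4 DMF+MEF kidneys, and 2.57, 2.79 and 2.79 as lowest, median and highest in the 8 VEH kidneys. All 4 DMF+MEF kidneys were above every VEH kidney. In a fit of all 45037 probe sets, added after seeing the data, the change was 0.47 (SE 0.0755, limma adjusted p = 7.91e-06), where 8.96% of probe sets were called in that comparison. The call held in the 12 fits that left out 1 of these kidneys each, with changes of 0.34 to 0.54 and adjusted p from 2.58e-06 to 0.00155. The probe set used by rule gave 0.19 in that fit (adjusted p = 0.26), so the 2 probe sets of the gene disagree in this group. The mean of both gave 0.33 (adjusted p = 0.000163).

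With DMF179.2 the second probe set read 2.79, 2.85 and 3.39 as lowest, median and highest at 12 h, and 5 of 8 kidneys lay above every VEH kidney. The change was 0.18 (SE 0.0616, limma adjusted p = 0.0847 with 5% of all probe sets called) and was not called, whereas the mean of both probe sets was higher by 0.17 and was called (adjusted p = 0.024). MEF kidneys had 2.76, 2.79 and 3.02, with 1 of 7 above every VEH kidney, and no DMF100 or NAIVE kidney was above VEH. At 6 h, 0, 1, 2 and 0 kidneys of DMF100, DMF179.2, MEF and DMF+MEF exceeded the highest VEH kidney of 2.92. This probe set also repeated 1 number often, 2.86 in 24 of 38 kidneys at 6 h and 2.79 in 22 of 39 at 12 h.

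**Figure D2:**
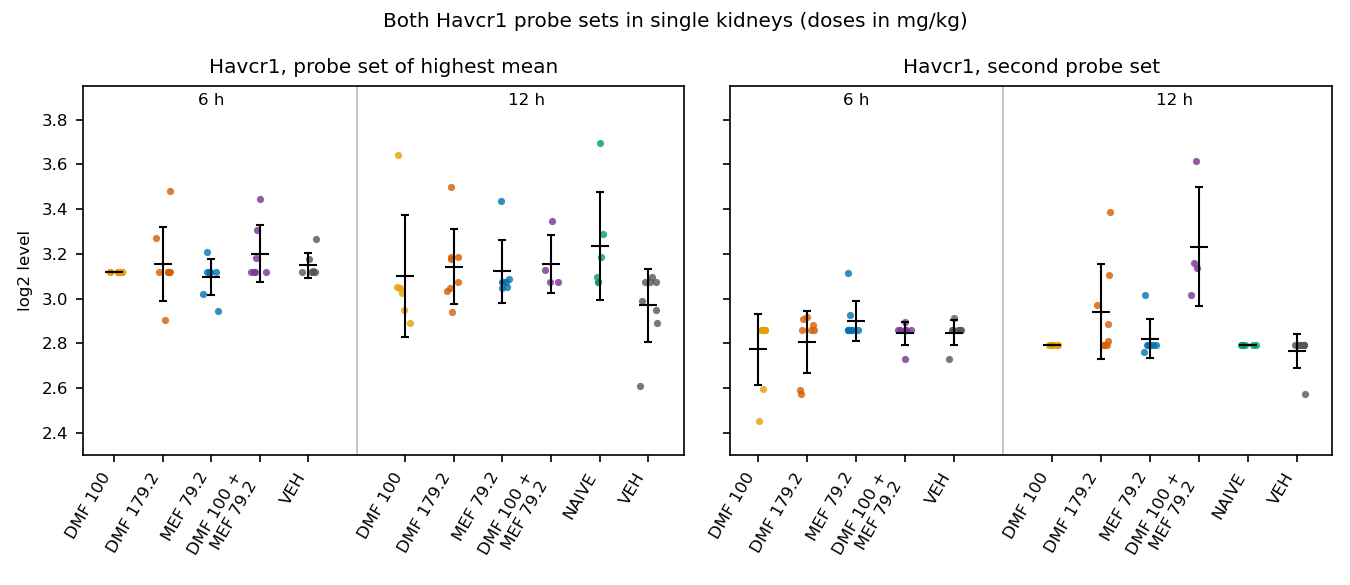
Log2 level of Havcr1 in every kidney by the probe set used and by the second probe set, with groups at 6 h and 12 h along the horizontal axis; points are single mice and bars the mean ± SD. In the second probe set the 4 DMF+MEF kidneys at 12 h lie between 3.01 and 3.62, above all VEH kidneys, which reach 2.79.

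Lcn2, measured by probe set 1427747_PM_a_at, was well above the floor, and its SD between mice of a dosed or VEH group was 0.29 to 0.54. At 12 h its lowest, median and highest levels were 5.45, 5.74 and 6.06 in DMF100, 5.75, 6.45 and 6.74 in DMF179.2, and 5.57, 6.17 and 6.78 in MEF. The 4 DMF+MEF kidneys had 6.69, 6.19, 6.47 and 5.85, and the VEH kidneys 5.01, 5.87 and 6.84. The highest single Lcn2 level of that time thus belonged to a VEH kidney, and no DMF179.2 kidney was above every VEH kidney. The change was 0.47 in DMF179.2 (SE 0.21, 1.38-fold with a 95% interval of 1.04 to 1.84, limma adjusted p = 0.19), 0.41 in DMF+MEF (SE 0.25, adjusted p = 0.374), 0.32 in MEF (adjusted p = 0.352) and -0.15 in DMF100. At 6 h the means were 6.55 ± 0.32 in DMF100, 6.69 ± 0.34 in DMF179.2, 6.60 ± 0.44 in MEF, 6.74 ± 0.54 in DMF+MEF and 6.51 ± 0.485 in VEH (SD), and the lowest adjusted p was 0.632.

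Clu, measured by probe set 1437458_PM_x_at, was far above the floor and varied little between mice. At 6 h its lowest, median and highest levels were 11.98, 12.03 and 12.12 in DMF100, 12.01, 12.08 and 12.19 in DMF179.2, 11.81, 11.99 and 12.10 in MEF, 11.92, 12.03 and 12.12 in DMF+MEF, and 11.97, 12.05 and 12.14 in VEH. At 12 h the means were 11.45 ± 0.10, 11.44 ± 0.07, 11.41 ± 0.10 and 11.51 ± 0.18 in DMF100, DMF179.2, MEF and DMF+MEF, and 11.46 ± 0.09 in VEH (SD). No group stood apart, the changes lay between -0.07 and 0.05, and the 95% intervals of the 8 fold changes ran from 0.895 to 1.11. One of the other Clu probe sets gave a lower value in MEF kidneys at 12 h, 11.10 ± 0.14 against 11.32 ± 0.13 in VEH (-0.22, limma adjusted p = 0.0231 in the fit of all probe sets, of which 12.4% were called), while the probe set used gave -0.05 and the mean of all Clu probe sets -0.13, which was called (adjusted p = 0.0271).

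Krt20, measured by probe set 1426284_PM_at, was near the floor. At 6 h its lowest, median and highest levels were 3.37, 3.50 and 3.56 in DMF100, 3.33, 3.43 and 4.36 in DMF179.2, 3.43, 3.53 and 4.59 in MEF, 3.19, 3.78 and 3.89 in DMF+MEF, and 3.50, 3.72 and 4.31 in VEH. DMF100 kidneys thus sat at the low end of the VEH range, with 3 of 8 below every VEH kidney, and 5 of 8 DMF179.2 kidneys were below it as well, with 1 above. The changes were -0.26 in DMF100 (SE 0.11, limma adjusted p = 0.217), -0.18 in DMF179.2 (adjusted p = 0.264), -0.04 in MEF and -0.09 in DMF+MEF, none called. Without DMF179.2 replicate 69, whose level of 4.36 was the highest of its group, the DMF179.2 change was -0.30 and was called (adjusted p = 0.0234). At 12 h the 4 dosed groups differed from VEH by -0.02 to 0.05, and 17 of 39 kidneys shared the value 3.51.

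Timp1, measured by probe set 1460227_PM_at, was near the floor, and 19 of 38 kidneys at 6 h and 27 of 39 at 12 h shared 1 value, 2.72 and 2.77. The means at 6 h were 2.76 ± 0.13 in DMF100, 2.74 ± 0.08 in DMF179.2, 2.73 ± 0.17 in MEF, 2.83 ± 0.36 in DMF+MEF and 2.65 ± 0.22 in VEH (SD). In DMF+MEF, 2 of 7 kidneys were above every VEH kidney, the highest at 3.62, and the change was 0.18 (SE 0.0894, limma adjusted p = 0.194). At 12 h the means were 2.78 ± 0.09, 2.77 ± 0.02, 2.86 ± 0.15 and 2.77 ± 0.015 in DMF100, DMF179.2, MEF and DMF+MEF, and 2.73 ± 0.08 in VEH, and no change was called.

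Vim, measured by probe set 1438118_PM_x_at, was far above the floor in all kidneys, and it gave the only call among the dosed groups. At 12 h its lowest, median and highest levels were 10.54, 10.63 and 10.79 in DMF100, 10.34, 10.47 and 10.67 in DMF179.2, and 9.99, 10.36 and 10.57 in MEF. The 4 DMF+MEF kidneys had 10.50, 10.67, 10.47 and 10.47, and the VEH kidneys 10.35, 10.54 and 10.69. MEF kidneys had the lowest mean of the dosed groups, with 3 of 7 below every VEH kidney and the remainder within the VEH range. The change in MEF was -0.27 (SE 0.0663, 0.83-fold with a 95% interval of 0.757 to 0.909, limma adjusted p = 0.00204), where 10.5% of all genes were called lower in that comparison. Injured tubules are known for the opposite direction.

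The other groups differed from VEH in Vim at 12 h by 0.13 in DMF100 (limma adjusted p = 0.532), -0.04 in DMF179.2 and 0.0038 in DMF+MEF, and at 6 h all 4 lay between -0.03 and 0.08. Vim is read by 3 probe sets, and the MEF change was not called with the other 2, at -0.13 (adjusted p = 0.337) and -0.04, nor with the mean of all 3, at -0.14 (adjusted p = 0.161). Animal numbers were also counted in successive runs of 12, a length set here that no label names. A place in such a run need not reflect how the mice were handled. Counted so, the groups were spread unevenly over the places. Among kidneys of like place in those runs the MEF change was the same, -0.27, with an adjusted p of 0.0529. Such a fit held only mice from spans of 4 places with at least 2 kidneys of each group compared. All MEF and VEH kidneys stayed in the MEF fits, whereas the fits of the other groups lost kidneys on both sides.

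**Figure D3:**
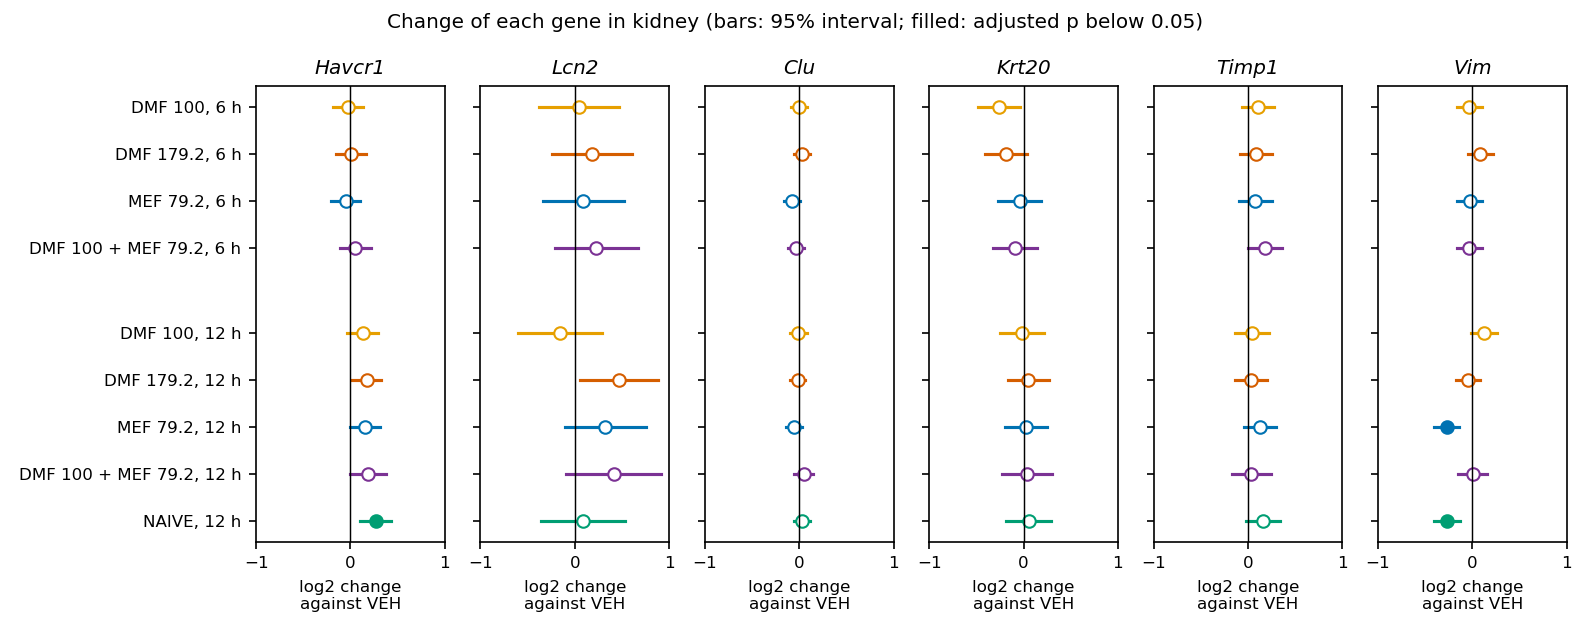
Log2 change of each injury gene against VEH in kidney, 1 panel per gene and 1 row per group, with 95% intervals and a vertical line at 0; filled points have a limma adjusted p below 0.05. The filled points are Vim in MEF kidneys at 12 h (-0.27) and, in NAIVE kidneys, Vim (-0.26) and Havcr1 (0.27).

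The dose and the combination were compared at each time within the drug groups. Of all genes, 9.15% at 6 h and 0.55% at 12 h were called between DMF179.2 and DMF100, 1.63% and 4.26% between DMF+MEF and DMF100, and 1.35% and 2.23% between DMF+MEF and MEF. One member comparison was called: Vim at 12 h was higher in DMF+MEF than in MEF by 0.27 (SE 0.0803, 1.21-fold, limma adjusted p = 0.05 after rounding and just under the threshold), with 1 of 4 DMF+MEF kidneys above every MEF kidney. Leaving out any 1 of DMF+MEF replicates 34, 35 and 36 or MEF replicates 25, 28, 29, 30 and 31 ended that call. Lcn2 at 12 h was 6.36 ± 0.33 in DMF179.2 and 5.74 ± 0.29 in DMF100 (SD), with 6 of 8 DMF179.2 kidneys above every DMF100 kidney. That difference, 0.62 (SE 0.22, 1.54-fold with a 95% interval of the log2 change of 0.17 to 1.06), was not called (adjusted p = 0.28). Lcn2 differed between DMF+MEF and DMF100 by 0.56 (SE 0.27, adjusted p = 0.276), with 3 of 4 kidneys above every DMF100 kidney.

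The change against VEH at 12 h minus that at 6 h was tested for each member and dosed group. No member was called, where 0.404% of all genes were called in DMF100, 7.14% in DMF179.2, 7.38% in MEF and 2.8% in DMF+MEF. The member with the lowest adjusted p was Vim in MEF, with a difference of -0.24 (limma adjusted p = 0.1). Without MEF replicate 32 of 12 h, 1 member difference was called, that of Vim.

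More genes were called between NAIVE and VEH than between any dosed group and VEH: 46% of all genes were called at 12 h, 26.8% higher and 19.2% lower. Vim levels in NAIVE kidneys were 10.14, 10.28 and 10.33 as lowest, median and highest, against 10.35, 10.54 and 10.69 in VEH. All 6 NAIVE kidneys were below every VEH kidney, and the change was -0.26 (SE 0.0692, 0.83-fold with a 95% interval of 0.757 to 0.916, limma adjusted p = 0.00108). The other Vim probe sets did not share that direction: one gave 9.64 ± 0.09 in NAIVE and 9.62 ± 0.13 in VEH, a change of 0.0159, and the other gave 8.41 ± 0.18 in NAIVE and 8.16 ± 0.14 in VEH, a change of 0.24 that was called (SE 0.0906, adjusted p = 0.0265, where 37% of all probe sets were called).

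Havcr1 levels in NAIVE kidneys were 3.08, 3.14 and 3.70, against 2.61, 3.03 and 3.10 in VEH, with 4 of 6 NAIVE kidneys above every VEH kidney. The change was 0.27 (SE 0.0826, 1.20-fold with a 95% interval of 1.07 to 1.35, limma adjusted p = 0.00585). One kidney decided that call: without NAIVE replicate 43, whose level was 3.70, the change was 0.17 (adjusted p = 0.0727). It was also lost after a further quantile normalization (0.18, adjusted p = 0.061), with only the 2 groups in the fit (adjusted p = 0.0624) and among kidneys of like place (0.44, adjusted p = 0.161). The last of these fits held only part of the NAIVE and VEH kidneys. By the second probe set all NAIVE kidneys read 2.79, a change of 0.03 (adjusted p = 0.955). Timp1 (0.16, adjusted p = 0.163), Lcn2 (0.08, adjusted p = 0.895), Krt20 (0.05, adjusted p = 0.847) and Clu (0.03, adjusted p = 0.69) were not called. A second Clu probe set was lower in NAIVE, 11.14 ± 0.10 against 11.32 ± 0.13 in VEH (-0.19, adjusted p = 0.0371), and after a further quantile normalization the Clu probe set used was higher by 0.11 (adjusted p = 0.0395).

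A wider list of genes known to rise in injured tubules held calls in every dosed group. Of 26 such genes, 24 were measured. Like the other lists, this one was chosen with earlier results of these data known. The part of that choice in its calls was not tested. At 6 h, 4, 7, 4 and 8 of the 24 were called higher in DMF100, DMF179.2, MEF and DMF+MEF, where 2.25%, 15%, 2.91% and 6.25% of all genes were called higher, and 1 was called lower, in DMF179.2. At 12 h, 2, 6, 4 and 7 were called higher, against 0.766%, 4.54%, 7.04% and 5.42% of all genes, and 1 was called lower, in MEF. Over the 192 comparisons, 42 were called higher and 2 lower. The median change of the 24 genes was 0.057, 0.134, 0.057 and 0.091 at 6 h and 0.061, 0.153, 0.088 and 0.142 at 12 h in the same order, against a median of all genes of 0.0. Among kidneys of like place these counts were 0, 2, 4 and 1 at 6 h and 0, 0 and 3 in DMF100, DMF179.2 and MEF at 12 h, with too few such kidneys for DMF+MEF. These fits held fewer kidneys than the main fit for DMF100, DMF179.2 and DMF+MEF, but not for MEF. The part of group size in the calls lost among kidneys of like place was not tested.

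Krt18 and Lgals3 were called higher in all 8 dosed comparisons. Krt18, a keratin of simple epithelia, had 9.65, 9.86 and 9.98 as lowest, median and highest level in DMF179.2 at 6 h, against 8.84, 9.34 and 9.55 in VEH, with no overlap. At 12 h it had 8.94, 9.39 and 9.51 in DMF179.2 and 8.32, 8.65 and 9.14 in VEH, which overlapped. Its changes were 0.29, 0.57, 0.38 and 0.45 at 6 h and 0.36, 0.59, 0.42 and 0.56 at 12 h in DMF100, DMF179.2, MEF and DMF+MEF, with limma adjusted p from 9.12e-07 to 0.0458. The DMF100 calls of Krt18 were lost under some alternatives, with an adjusted p of 0.055 at 6 h after a further quantile normalization and of 0.0562 at 12 h without VEH replicate 2, the kidney with adrenal transcripts. Among kidneys of like place Krt18 was not called in DMF100 (0.19 at 6 h and 0.51 at 12 h, adjusted p = 0.397 and 0.892) or in DMF179.2 (0.76 and 0.51, adjusted p = 0.0706 and 0.342). Those fits held only part of the kidneys. At 12 h the genes called in them fell from 236 to 8 in DMF100 and from 1240 to 12 in DMF179.2. Krt18 was also higher in NAIVE than in VEH, by 0.57 (adjusted p = 7.77e-07).

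Lgals3, which encodes galectin-3, a lectin of epithelial cells and macrophages, had 9.32, 9.48 and 9.68 in DMF179.2 at 6 h, against 8.79, 8.99 and 9.08 in VEH. At 12 h it had 8.68, 8.86 and 8.98 in DMF179.2, against 8.19, 8.30 and 8.51 in VEH. The groups did not overlap at either time, and the changes were 0.51 (limma adjusted p = 1.39e-09) and 0.53 (adjusted p = 7.54e-10). The other dosed groups rose by 0.34 (DMF100), 0.26 (MEF) and 0.36 (DMF+MEF) at 6 h and by 0.26, 0.18 and 0.59 at 12 h, and NAIVE was higher than VEH by 0.24 (adjusted p = 0.0014). Among kidneys of like place Lgals3 was not called in DMF100 (0.32 at 6 h and 0.28 at 12 h, adjusted p = 0.241 and 0.668) or in DMF179.2 at 12 h (0.53, adjusted p = 0.0846). Those fits, too, held only part of the kidneys. In DMF+MEF at 6 h, 1 of the 24 listed genes was called higher among such kidneys, so at least 1 of Krt18 and Lgals3 was not called there.

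The largest single change of the list was that of Tnfrsf12a, the receptor of the cytokine TWEAK. It had 7.59, 7.74 and 8.47 in DMF+MEF at 6 h, against 6.13, 6.72 and 6.91 in VEH, with no overlap, and the change was 1.20 (SE 0.13, limma adjusted p = 7.17e-11). It was also called in the other dosed groups at 6 h, at 0.44 in DMF100, 0.70 in DMF179.2 and 0.65 in MEF, and at 12 h in DMF+MEF at 0.65. Among kidneys of like place, only part of each group, the 6 h calls of DMF100, DMF179.2 and DMF+MEF were lost (adjusted p = 0.347, 0.0907 and 0.0537), at changes of 0.62, 0.55 and 1.48. Fga, the alpha chain of fibrinogen, had 8.56, 8.91 and 9.26 in DMF179.2 at 6 h, against 7.65, 7.98 and 8.25 in VEH, a change of 0.93 (adjusted p = 6.89e-10). Fga rose in 5 dosed comparisons, whereas Fgb was called in none and Fgg was lower in DMF179.2 at 6 h by -0.33 (adjusted p = 0.034). That Fgg call was lost without replicate 71, the kidney with the low Xist level, with only the groups compared, with place as a covariate and among kidneys of like place.

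Cdkn1a, which encodes the cell cycle inhibitor p21, had 6.93, 7.67 and 8.21 in DMF179.2 at 12 h, against 6.46, 6.83 and 7.0 in VEH, which overlapped. The change was 0.79 (limma adjusted p = 0.000789) in DMF179.2 and 0.84 (adjusted p = 0.00355) in DMF+MEF. In MEF kidneys at 12 h, Krt19 was higher by 0.60 (adjusted p = 0.0223) and Tff3 by 0.43 (adjusted p = 0.00402), and Sox4 was lower by -0.39 (adjusted p = 0.00512). With only the groups compared Krt19 and Tff3 were not called (adjusted p = 0.0703 and 0.0559). NAIVE kidneys, which share the VEH kidneys of that comparison, had changes of 0.84 in Krt19, 0.60 in Tff3 and -0.85 in Sox4. With the mean of all its probe sets Sox4 was not called in either group, at -0.05 in MEF (adjusted p = 0.586) and -0.09 in NAIVE (adjusted p = 0.162). In NAIVE, 8 of the 24 genes were called higher and 2 lower, where 26.8% of all genes were called higher and 19.2% lower. In the dosed comparisons 9 of the 24 genes were never called: Ccl2, Cd44, Cxcl1, Fgb, Gpnmb, Icam1, Il6, S100a6 and Vcam1, among them the chemokines, the cytokine and the adhesion molecules of the list. In all 8 dosed comparisons Il6 differed from VEH by 0.0 and Gpnmb by at most 0.0067. Values so even left little room for a call of either gene.

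**Figure D4:**
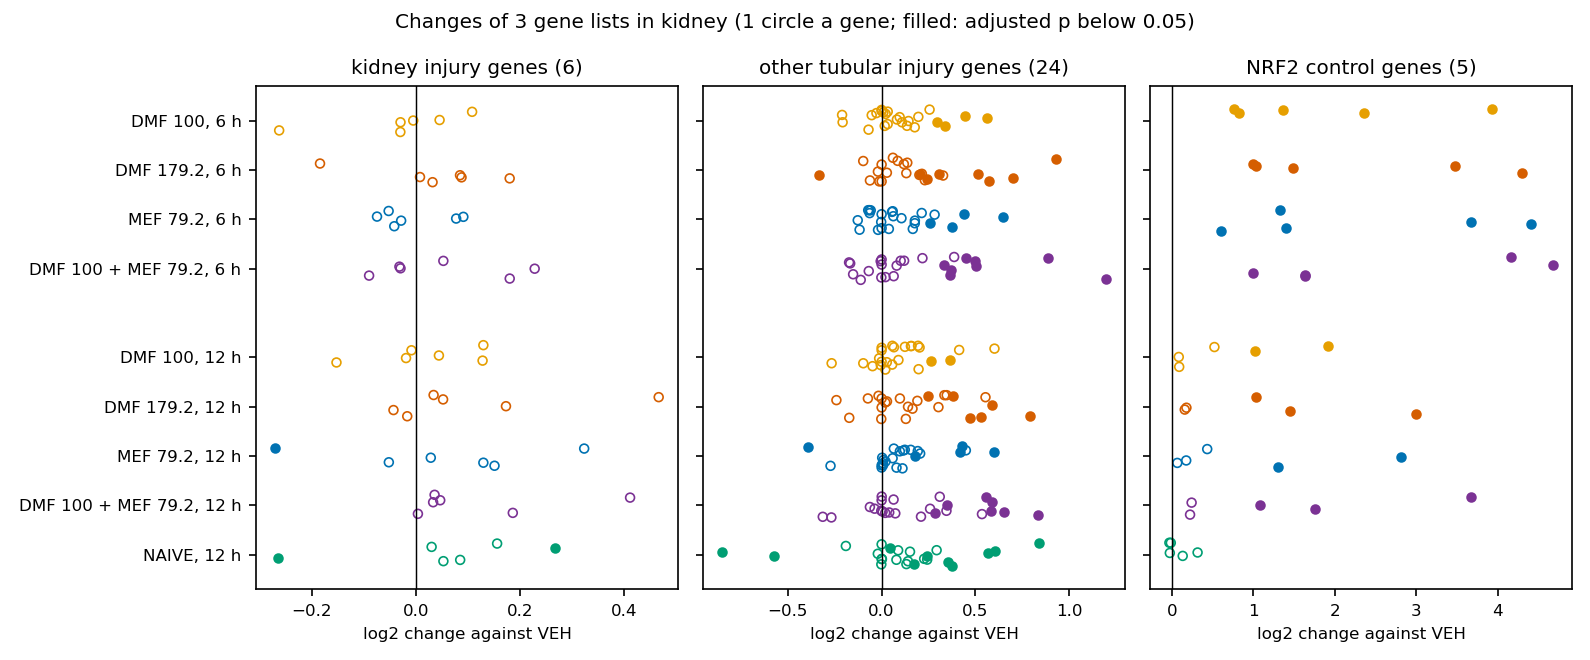
Log2 change against VEH in kidney for 3 gene lists, the 6 measured kidney injury genes, the 24 other tubular injury genes and the 5 NRF2 control genes, in each dosed group and in NAIVE. Each circle is 1 gene and filled circles have a limma adjusted p below 0.05; among the dosed groups the injury genes have 1 filled circle, below 0, while the other tubular injury genes have 42 above 0 and 2 below.

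Proximal tubule markers moved in the dosed groups as well. Of 17 listed, 14 were measured, and 1, 1, 3 and 6 were called lower in DMF100, DMF179.2, MEF and DMF+MEF at 6 h and 0, 6, 7 and 8 at 12 h. All genes called lower made up 1.82%, 9.99%, 2.98% and 6.93% at 6 h and 0.614%, 2.71%, 10.5% and 5.6% at 12 h. Aqp1, a water channel, was lower in 7 of the 8 comparisons, by -0.17 to -0.29. Slc5a12, a lactate transporter, had 10.28, 10.61 and 10.75 in MEF at 12 h, against 10.81, 11.07 and 11.24 in VEH, with no overlap and a change of -0.50 (limma adjusted p = 1.15e-05). Slc13a3, a carrier of dicarboxylates, went the other way and was higher in 6 of the 8 comparisons, by 0.14 to 0.22. In NAIVE kidneys 10 of the 14 markers were called lower than in VEH and 1 higher, where 19.2% of all genes were called lower and 26.8% higher. Among kidneys of like place, 0, 0, 5 and 2 markers were lower at 6 h and 0, 0 and 7 at 12 h in DMF100, DMF179.2 and MEF. Of these fits only those of MEF held all kidneys of both groups.

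Of 6 thick ascending limb and distal tubule markers, Umod, Calb1, Slc12a1 and Egf were lower in MEF at 12 h, by -0.40, -0.38, -0.29 and -0.21, and in NAIVE, by -0.55, -0.47, -0.27 and -0.29. The other 2, Pvalb and Slc12a3, were higher in NAIVE, by 0.31 and 0.11, and were not called in MEF at 12 h. Of all genes, 10.5% were called lower in MEF at 12 h, and 19.2% lower and 26.8% higher in NAIVE.

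Markers of cells that can carry injury gene transcripts into the tissue were called in some comparisons, with 8 such markers called in DMF179.2 at 6 h, where 15% of all genes were called higher and 9.99% lower. Of 6 neutrophil markers, S100a8 (1.34, limma adjusted p = 1.27e-05) and S100a9 (0.97, adjusted p = 0.00525) were higher in DMF179.2 at 6 h. No other neutrophil marker was called there, and the median change over the list was 0.0093. The mean of the neutrophil list was 3.29 to 4.01 in those kidneys, against 3.09 to 3.26 in VEH, a difference that thus rests on part of the list. Of 5 endothelial markers, Kdr, Pecam1 and Emcn were lower in the same group, by -0.31, -0.30 and -0.22, as was Dcn, a fibroblast marker, by -0.48 (adjusted p = 0.006). Of 6 macrophage markers, Cd68 was higher there by 0.51 (adjusted p = 0.0142), beside the higher Lgals3, and C1qa was lower by -0.38 (adjusted p = 0.0247), with a median of 0.26 over the list. C1qa was also lower in DMF+MEF at 6 h, by -0.43 (adjusted p = 0.0226). Among kidneys of like place, only part of both groups, none of these 8 markers was called. None of the 6 injury genes was called in either group at 6 h, and the part of these cells in the values of the members and of Lgals3 was not tested. Of 6 fibroblast and mural cell markers, which include cells known to make Vim, Col3a1 was lower in MEF at 12 h by -0.34 (adjusted p = 0.0458) and in NAIVE by -0.56 (adjusted p = 0.000263). The median over the 6 was -0.0284 in MEF and 0.097 in NAIVE. Vim was called lower in both groups by the probe set used, but by neither of its other probe sets. The MEF call of Col3a1 was lost after a further quantile normalization (adjusted p = 0.0606), with only the groups compared (0.11) and among kidneys of like place (0.126). Pdgfrb was higher in NAIVE by 0.42, and the part of these cells in the Vim change was not tested.

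In the 6 other organs, 288 comparisons of a member with VEH were made in dosed groups. Of these, 2 were called, both higher, and 24 had an unadjusted limma p below 0.05. Of all 820656 gene comparisons of these organs, 2.41% were called and 105930 had an unadjusted limma p below 0.05. Levels were not set against each other between organs. Against floors of 2.18 to 2.25 in these organs at 12 h, VEH mice had Havcr1 levels of 2.53 in brain, 2.43 in jejunum and 2.56 in whole blood. By the other Havcr1 probe set, which had the higher mean there, VEH levels were 6.96 in inguinal lymph node, 6.19 in mesenteric lymph node and 5.27 in spleen. Havcr1 was called in none of these organs.

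Timp1 was called in spleen at 6 h. DMF179.2 spleens had 5.59, 5.78 and 6.64 as lowest, median and highest level (n = 7), against 4.86, 5.37 and 5.70 in VEH (n = 8), and 4 of 7 were above every VEH spleen. The change was 0.58 (SE 0.17, limma adjusted p = 0.007), where 23% of all genes were called. With DMF100, 6 of 7 spleens were above every VEH spleen and the change was 0.64, yet it was not called (adjusted p = 0.0885). MEF and DMF+MEF differed by 0.23 and 0.33.

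Krt20 was called in the inguinal lymph node at 12 h. DMF179.2 nodes had 5.10, 5.58 and 5.91 (n = 6), against 4.97 ± 0.64 (SD, n = 4) in VEH, whose values ran between 4.03 and 5.40, and 4 of 6 were above every VEH node. The change was 0.57 (SE 0.20, limma adjusted p = 0.0414), where 12.3% of all genes were called. Krt20 is known as a keratin of gut epithelium, and its VEH level was 12.97 in jejunum, where no dosed group was called.

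The widest changes of the members outside the kidney were not called. In whole blood, Lcn2, which neutrophils also make, differed from VEH by 0.80, 1.00, 0.71 and 1.16 at 6 h in DMF100, DMF179.2, MEF and DMF+MEF (lowest limma adjusted p = 0.304) and by -0.22, -0.28, -0.75 and -0.54 at 12 h. In the inguinal lymph node at 12 h, Lcn2 differed by 0.55 to 1.16 in the dosed groups and by 1.12 in NAIVE, against 4 VEH nodes with a mean of 3.54 ± 0.45 (SD). Clu in jejunum at 12 h was 8.36 ± 0.27 in DMF179.2 and 9.43 ± 1.01 in VEH (SD), a change of -1.08 (adjusted p = 0.121), with 5 of 8 below every VEH jejunum. In NAIVE mice, where 10.9% of all gene comparisons of the 6 other organs were called, 3 member comparisons were: Vim in brain (-0.39, adjusted p = 0.0299, 2.56% of genes called), Vim in spleen (-0.18, adjusted p = 0.00764, 18.3% called) and Clu in mesenteric lymph node (0.10, adjusted p = 0.0112, 24.4% called).

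**Figure D5:**
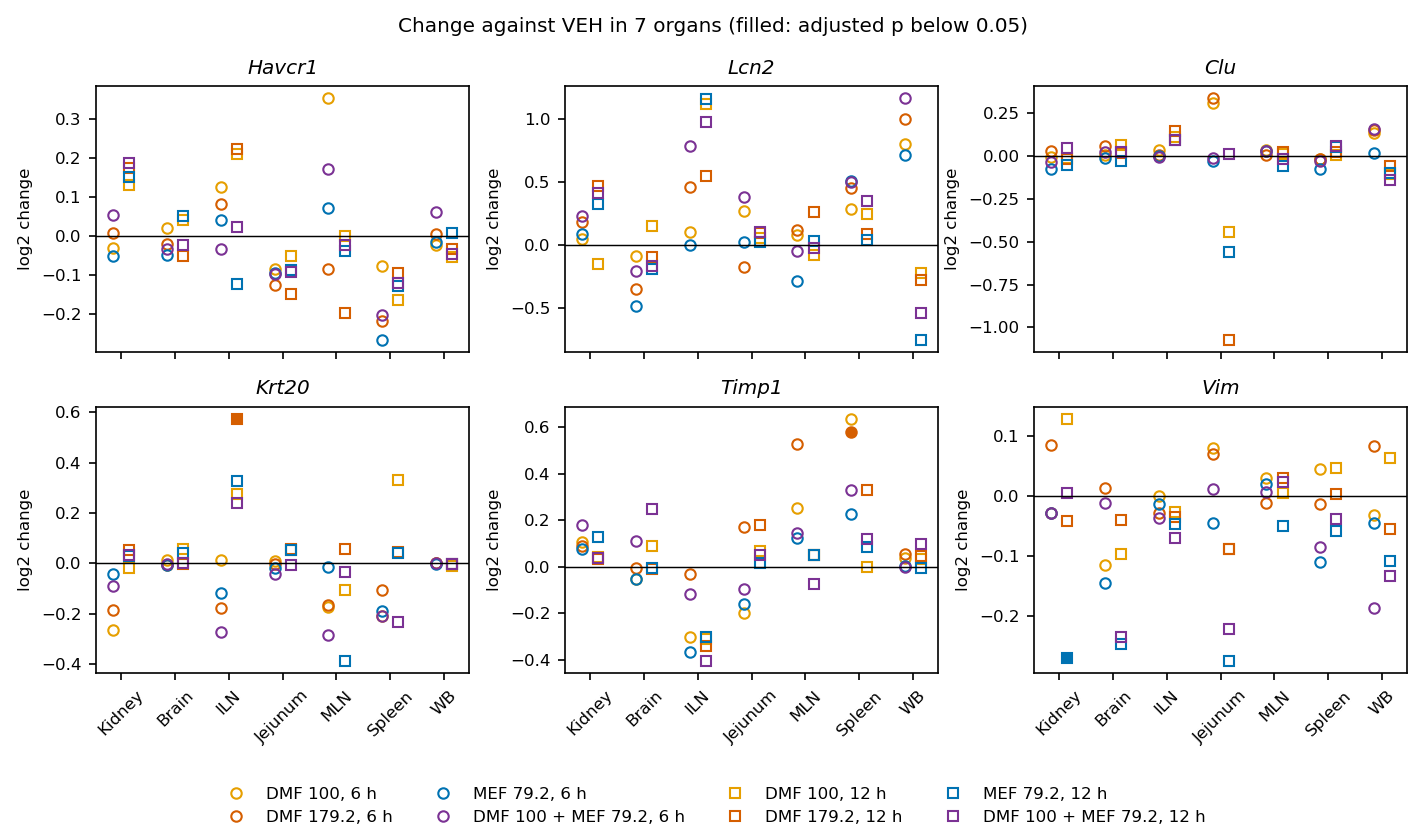
Log2 change of each injury gene against VEH in the 7 organs, 1 panel per gene, with circles for 6 h, squares for 12 h and colours for the dosed groups (ILN and MLN, inguinal and mesenteric lymph node; WB, whole blood); filled symbols have a limma adjusted p below 0.05. The filled symbols are Vim in kidney (MEF, 12 h, -0.27), Timp1 in spleen (DMF179.2, 6 h, 0.58) and Krt20 in the inguinal lymph node (DMF179.2, 12 h, 0.57).

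Across the 77 kidneys, after subtracting the mean of each time, Pearson correlations between pairs of members were -0.15 to 0.14. Havcr1, Krt20 and Timp1 lie near the floor, with 1 value shared by many kidneys, which limits what correlations with them can show. Among 8548 genes with a mean above the kidney median, those most like Vim were Gsn (0.71), an actin-severing protein, Fabp5 (0.68), a fatty acid binding protein, and Cav1 (0.68), the coat protein of caveolae. Those most like Lcn2 were Pllp (0.54), Mtmr10 (0.52) and Slc39a7 (0.51), and those most like Havcr1 were Sdc3 (0.54), Trem2 (0.50) and Nrg2 (0.48), of which Sdc3 gave -0.02 at 6 h and 0.67 at 12 h. Clu was most like Ercc1 (0.53), Mapk1ip1 (0.50) and 1700030K09Rik (0.47). Krt20 was most like Hp (0.49), S100a6 (0.49) and Aoc3 (0.49), and Timp1 most like Susd5 (0.50), Atxn2l (0.47) and Nup93 (0.44). These are the highest of many correlations over arrays that share a normalization and treatment groups, and they describe these kidneys only.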

How the data were processed

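The values were read from the authors' deposited table of log2 intensities for 45141 probe sets, of which 104 are control probe sets. The submitters' processing notes name RMA, GCRMA, R 2.11.1 and limma 3.4.5, without roles, and the step that made the table is not given in the sources used here. Of all probe sets, 28898 had 1 gene, 551 several and 15588 none. Each gene was read from its probe set of highest mean in the organ. Each organ was fitted with limma 3.58.1 (R 4.3.3), 1 mean per group and a moderated variance, and p-values were adjusted by Benjamini-Hochberg over 17097 genes per comparison, two-sided. Tables and plots used Python 3.11.15, pandas 2.3.3, numpy 2.4.6, matplotlib 3.10.9 and the R package data.table (1.17.8). The fit was tested on simulated data. The number of arrays limits the precision.

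The named genes are the members, up to 4 called genes of largest change per other list and kidney comparison, of which those printed were picked after their values were seen, the 3 most similar genes of each member, and 5 NRF2 control genes. The members and lists were chosen with earlier results of these data known. The alternatives quantile-normalized the values again, dropped dim genes, used a trended and robust variance, fitted the 2 groups of a comparison alone, averaged the probe sets of each gene, added the place of the animal number as a covariate or a block, and left out each array. The places rest on runs of 12 numbers, a length that no label names. Spp1, and DMF against MEF, were left out.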

Additional observations from a re-analysis of the deposited data

Results flagged for a closer look

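In 18 of the 65 sets of values tested, each of 1 gene in 1 kidney group of 4 to 8 mice, 1 mouse stood apart from its group by more than the limit of Dixon's test, which chance passes in about 1 group of 20. The value given is the gap to the nearest mouse divided by the range of the group. For Havcr1 it was 0.612 in VEH replicate 53 at 6 h (level 3.27), and at 12 h 0.786 in DMF100 replicate 13 (3.64), 0.557 in DMF179.2 replicate 22 (3.50), 0.895 in MEF replicate 30 (3.44), 0.655 in NAIVE replicate 43 (3.70) and 0.58 in VEH replicate 8 (2.61). For Krt20 it was 0.812 in DMF179.2 replicate 69 (4.36) and 0.665 in VEH replicate 52 (4.31) at 6 h, and 0.987 in DMF100 replicate 15 (3.56) and 1.0 in DMF+MEF replicate 33 (3.75) at 12 h.

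For Timp1 it was 0.539 in DMF100 replicate 65 (2.52), 0.91 in DMF179.2 replicate 72 (2.93), 0.569 in MEF replicate 78 (2.38), 0.661 in DMF+MEF replicate 87 (3.62) and 0.622 in VEH replicate 55 (2.18) at 6 h, and 0.835 in DMF179.2 replicate 19 (2.71) and 1.0 in DMF+MEF replicate 35 (2.74) at 12 h. For Lcn2 it was 0.654 in MEF replicate 78 at 6 h (7.61). Of these 18, 17 concern Havcr1, Krt20 and Timp1, which lie near the floor, and in which 9 to 27 kidneys of a time shared 1 value. Neither Clu nor Vim had such a mouse. Of 168 differences between times tested over all organs, none was called.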

How the results depend on the processing

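Each of the 54 kidney changes of a member against VEH was refitted under all alternatives that could be run, 1170 in all, and 1150 kept their side of the threshold, 10 lost a call, 7 gained one and 3 turned sign with a call before or after. Among the 1150 were 65 uncalled changes that turned sign and stayed uncalled, with sizes up to 0.26, 27 of them with 1 mouse left out. The count of members called moved as follows. In DMF179.2 at 6 h it was 1 without replicate 69 and 0 to 1 over the left-out mice. With the mean of all probe sets it was 1 in DMF179.2, 1 in DMF+MEF, 1 in NAIVE and 1 for the change between times, in each case at 12 h. For MEF at 12 h it was 0 within shared places, and the 1 called with the mean of all probe sets was Clu, not Vim. For NAIVE, with 2 called, it was 1 with dim genes left out, 1 with only the groups compared, 1 within shared places and 1 without replicate 43, a range of 1 to 2. For the change between times it was 0 to 1 over the left-out mice, and 1 without MEF replicate 32. For the dose and combination it was 0 after quantile normalization, with only the groups compared, with place as a covariate, or without 1 of the 8 mice named above, a range of 0 to 1. For the other organs, with 5 called, NAIVE included, it was 3 after quantile normalization and 2 with only the groups compared. Leaving out any mouse gave 0 in DMF100, MEF and DMF+MEF at 6 h and in DMF100, DMF179.2 and DMF+MEF at 12 h, and 1 in MEF at 12 h. The signs that turned with a call were Clu in NAIVE with a second probe set (-0.1851), Vim in NAIVE with the others (0.0159 and 0.2446) and, outside the members, Hsd3b1 in DMF179.2 at 12 h within shared places (0.0664, against -1.5641). That last fit did not hold VEH replicate 2. Its Hsd3b1 level was 10.58, against at most 5.85 in the 38 other kidneys of 12 h. The cause of these turns was not tested.

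Counts over all genes within shared places were 32, 281, 1297 and 548 at 6 h in DMF100, DMF179.2, MEF and DMF+MEF, against 695, 4267, 1008 and 2253 over all mice, and 8, 12 and 2810 at 12 h in DMF100, DMF179.2 and MEF, against 236, 1240 and 2991, and 4369 in NAIVE, against 7871. That alternative could not be run for DMF+MEF at 12 h. It held all MEF kidneys but only part of the DMF100, DMF179.2, DMF+MEF and NAIVE kidneys, and the part of group size in these counts was not tested. With only the groups compared they were 57 in DMF100, 742 in DMF179.2 and 966 in DMF+MEF at 12 h, against 236, 1240 and 1884. No paired analysis was possible because animal numbers are never shared between groups of 1 organ. Signals near the floor limit Havcr1, Krt20 and Timp1.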

Other observations

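The mouse numbered 71 in DMF179.2 at 6 h had the lowest Xist level of all mice in each of the 7 organs: 3.99 in kidney, 3.78 in brain, 3.20 in mesenteric lymph node, 4.33 in spleen, 2.85 in whole blood, 7.94 in inguinal lymph node and 9.67 in jejunum. The kidney of VEH replicate 2 at 12 h had a Cyp11b1 level of 9.74, a Star level of 9.09 and an Hsd3b1 level of 10.58, against at most 2.80, 4.57 and 5.85 in the 38 other kidneys of that time. These are genes of steroid hormone synthesis in the adrenal gland. Without that kidney, Vim in MEF at 12 h was lower by -0.26 (limma adjusted p = 0.0047), and in NAIVE Havcr1 was higher by 0.28 (adjusted p = 0.00457) and Vim lower by -0.26 (adjusted p = 0.00233).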
